A study of Mus musculus with 6 samples.

Results

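The neural lineage genes described here are 9 genes, Sox1, Pax6, Pax3, Nes, Neurog1, Hes5, Tubb3, Sox11 and Map2. They were taken by name, and all 9 were found among the 24421 gene rows of the deposited count table. The RNA came from mouse induced pluripotent stem cells (iPSCs), cells reprogrammed to a state like that of embryonic stem cells. In 3 libraries both alleles of the serum response factor gene were deleted (SRFΔ/Δ, SRF KO, below also the knockout), and 3 libraries carried the intact conditional alleles (SRFf/f, WT). Both were kept in medium that contained serum, with no differentiation step named in the labels. The labels give neither the age nor the strain of the source mice, do not say how many clones stand for each genotype, and do not tell if replicates came from separate cultures. The p-values below therefore measure the spread between these libraries, which may be technical.

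When pluripotent cells take on a neural fate, they first become neuroectoderm, marked by Sox1 and then Pax6, and fill their cytoplasm with the intermediate filament nestin (Nes). Notch signalling, acting through RBPJ and effectors such as Hes5, holds such cells as progenitors, while proneural factors such as Neurog1 drive them toward neurons. Neurons then express SoxC factors such as Sox11, the beta-tubulin Tubb3 and the microtubule-associated protein Map2. Several of these genes are also transcribed in cells that are not neural, so that RNA of a single gene does not define a neural cell.

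Total counts were between 26321602 and 36680156 per library. A count of 3, used here as the floor that a count of 0 allows, corresponded to between 0.0828 and 0.117 CPM (each library's counts divided by its size, with TMM factors for composition). Floors and counting intervals cover counting error only. Srf RNA in SRF KO was 11.5% of the WT level, with groups that did not overlap, so that the targeted gene fitted the labels in every library. All 18 pluripotency markers were above the floor, with a summed level of 6927 to 7004 CPM in the knockout and 8174 to 8707 CPM in WT. WT replicate 2 stood apart from the other WT libraries, with a chi-square per degree of freedom of 12.9 and 15.5 against them, while those 2 differed by 3.80. Values without this library are given where they matter. In bulk RNA, fewer cells of a type and less RNA per cell cannot be told apart.

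Of the 9 genes, Map2 and Neurog1 were lower in SRF KO, Nes was higher, and Sox1, Pax6, Tubb3 and Sox11 did not pass the test. Hes5 was at or under 3 counts in all 6 libraries. Pax3 was at or under 3 counts in 3 libraries and never above 5. Both had too few counts to be tested, which left 7 genes. The test was edgeR's quasi-likelihood test, with p-values adjusted by the Benjamini-Hochberg method over all 15611 rows tested and a threshold of 0.05. Over all 14778 genes tested 42.4% were called, 21.2% higher and 21.3% lower in SRF KO, and 3 of the 7 tested neural lineage genes is a share near that background. The median log2 fold change of the 7 genes was -0.009, beside -0.013 over all genes tested. Summed over the 9 genes, the level was 185.1 to 192.8 CPM in the knockout and 180.4 to 190.1 CPM in WT, so that the groups overlapped.

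**Figure D1:**
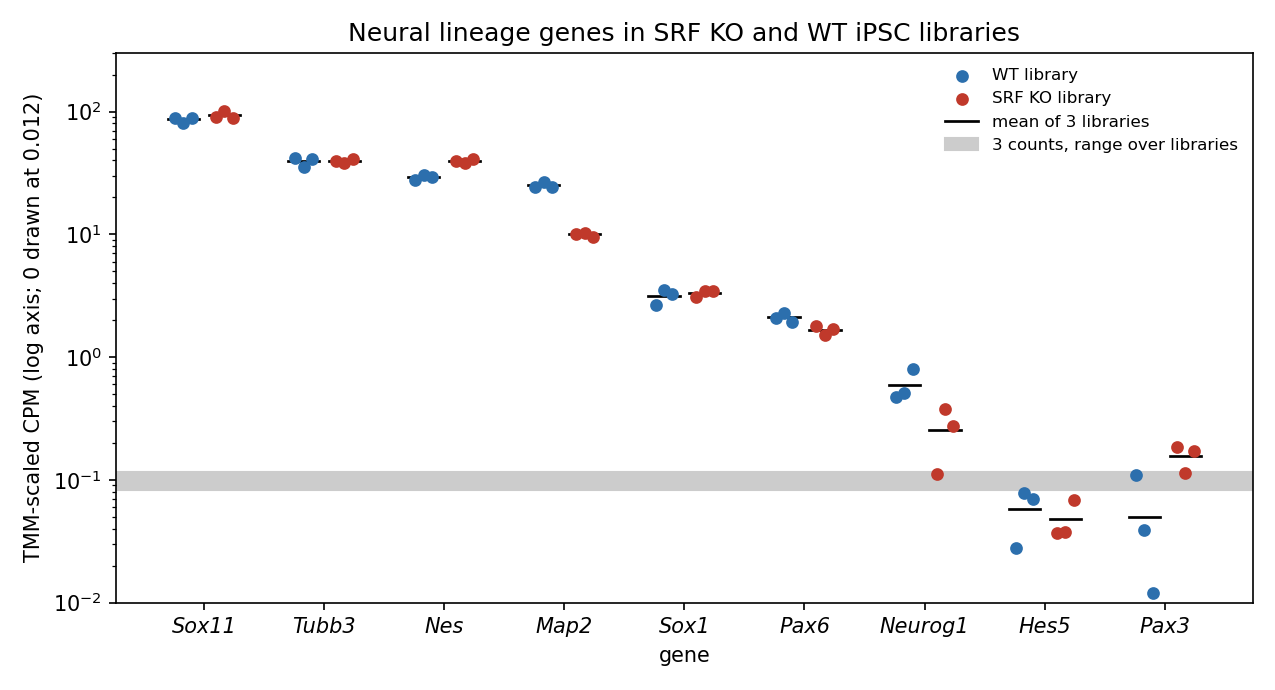
TMM-scaled CPM (log axis) of the 9 neural lineage genes in each of 3 WT (blue) and 3 SRF KO (red) libraries, with black lines for the group means and a grey band for the level of 3 counts. Map2 separates downward and Nes upward in SRF KO, Sox11, Tubb3 and Sox1 lie close together, and Hes5 lies under the band in every library.

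The DNA just upstream of 4 of these genes is shown because 3 of them were called and because Hes5, though nearly silent, holds the only match to the SRF binding element in the set. The sequences are RefSeq promoter windows on assembly GRCm38.p6, the build that the submitters' processing notes name as mm10. RefSeq windows were found for 8 of the 9 genes, Pax3 being the other. Each line runs 5′ to 3′ on the strand of the gene, starts 250 bases before the RefSeq start and stops before any base that GENCODE places inside the gene. Capitals mark matches, on either strand, to the CArG box (the element SRF binds), to TGGGAA (the core of the RBPJ site) and to GGGCGG (the GC box).
Map2, chr1:66175079-66175272, plus strand: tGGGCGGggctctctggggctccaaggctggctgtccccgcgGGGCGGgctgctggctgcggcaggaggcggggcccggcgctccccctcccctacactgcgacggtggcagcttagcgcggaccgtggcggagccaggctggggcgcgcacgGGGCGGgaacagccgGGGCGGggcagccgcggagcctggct
Neurog1, chr13:56252181-56252430, minus strand: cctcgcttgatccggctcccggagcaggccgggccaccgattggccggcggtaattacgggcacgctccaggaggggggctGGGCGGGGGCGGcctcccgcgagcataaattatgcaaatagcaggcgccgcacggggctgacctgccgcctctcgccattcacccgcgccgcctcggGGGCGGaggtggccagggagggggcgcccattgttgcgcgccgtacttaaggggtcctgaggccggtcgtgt
Nes, chr3:87970843-87971077, plus strand: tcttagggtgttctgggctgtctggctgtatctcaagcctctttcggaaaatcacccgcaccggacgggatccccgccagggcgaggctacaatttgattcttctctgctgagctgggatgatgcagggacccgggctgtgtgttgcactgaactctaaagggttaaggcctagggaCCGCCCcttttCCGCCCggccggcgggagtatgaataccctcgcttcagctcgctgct
Hes5, chr4:154960673-154960922, plus strand: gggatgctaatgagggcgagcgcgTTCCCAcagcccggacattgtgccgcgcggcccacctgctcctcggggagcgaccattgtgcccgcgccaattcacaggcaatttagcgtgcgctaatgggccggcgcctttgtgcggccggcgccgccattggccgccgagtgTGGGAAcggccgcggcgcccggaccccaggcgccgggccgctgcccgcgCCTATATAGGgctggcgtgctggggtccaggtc

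Hes5 had 1 CArG match, CCTATATAGG, which begins 33 bases before its start, and 2 TGGGAA matches that begin 226 and 82 bases before it. No match overlapped another in that window. The other 7 genes with a window had neither motif in 250 bases. Of all 32851 RefSeq windows of this length, 1.47% held a CArG match and 21.6% a TGGGAA match. GGGCGG was found in 32.7% of all windows, and 6 of the 8 genes had it, with 5 matches in the full window of Map2, 4 of them in the stretch shown. The full 250-base RefSeq window of Map2 was 81.2% G and C, more than 99.1% of all windows, with 34 CG pairs. That window includes 56 bases that GENCODE places inside the gene. A match is a match of letters, not a measured site, and no match says only that these letters are not in this window.

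Map2, a protein that binds and stabilises microtubules in dendrites, fell in every knockout library. Counts were 271, 272 and 277 in the knockout against 877, 683 and 703 in WT. The corresponding levels were 10.1, 10.3 and 9.58 CPM in the knockout and 24.2, 26.6 and 24.5 CPM in WT, so that every SRF KO library lay well under every WT library. The means were 9.97 ± 0.359 and 25.1 ± 1.27 CPM (SD, n = 3). The log2 fold change was -1.33 (SE 0.075, 95% interval -1.49 to -1.17), with an edgeR adjusted p of 1.2e-07, and SRF KO held 39.8% of the WT level. Map2 was the 102nd gene from the bottom when the 14778 tested genes were ordered by fold change. Without WT replicate 2 the value was -1.28. The gene lies at chr1:66175273-66442583 on the plus strand of GRCm38 (GENCODE M21), with up to 15 exons in its 24 annotated transcripts, which gene counts do not tell apart. An antisense entry, Gm10558, and the small RNA entries Gm24729 and Gm25411 overlap it in the annotation and have no row in the table.

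Nes encodes nestin, the intermediate filament of neural progenitors, which is also made in mesenchymal and some endothelial cells. Its levels were 39.7, 38.5 and 40.8 CPM in the knockout and 27.8, 30.7 and 29.2 CPM in WT, with all SRF KO libraries above all WT libraries. The means were 39.6 ± 1.16 and 29.2 ± 1.43 CPM (SD, n = 3), which is 0.44 on the log2 scale (edgeR adjusted p 0.00016, SE 0.062, 95% interval 0.31 to 0.58). Its rise was modest within the table, since 24.7% of all genes tested had a larger absolute change. Markers of another cell type moved with it: of 19 tested fibroblast genes out of 20 listed, 18 were higher and 0 lower in the knockout. Their median log2 fold change was 1.09, and the list summed to 3879 to 4506 CPM in the knockout and 2882 to 3120 CPM in WT. The remaining listed gene, Tcf21, was at or under 3 counts in every library. The intermediate filament Vim, on that list, was at 412 CPM in the knockout and 234 CPM in WT, and its log2 fold change of 0.82 passed the test. All 14 tested primitive endoderm markers were higher as well, with a median log2 fold change of 3.67. The part of cells of either type in the rise of Nes was not tested. Nes lies at chr3:87971078-87980451 on the plus strand, with up to 5 exons.

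Neurog1, a basic helix-loop-helix (bHLH) factor that starts neuronal differentiation, was called lower on very few reads. It had 3, 10 and 8 counts in the knockout and 17, 13 and 23 counts in WT, and the groups did not overlap. The levels were 0.255 ± 0.134 and 0.592 ± 0.182 CPM (SD, n = 3), and SRF KO replicate 1 was at the floor. The log2 fold change was -1.19 (SE 0.406, 95% interval -2.08 to -0.30) with an edgeR adjusted p of 0.034. Summed over libraries, 21 counts in SRF KO against 53 in WT gave a ratio of 0.436, with an exact 95% counting interval of 0.250 to 0.736. The call was lost when any of 3 libraries was left out: without SRF KO replicate 1 the value was -0.84 (adjusted p 0.132), without SRF KO replicate 3 it was -1.25 (0.0801), and without WT replicate 3 it was -0.92 (0.115). DESeq2 gave -1.20 with an adjusted p of 0.0777. The gene has 1 exon and lies at chr13:56250478-56252163 on the minus strand.

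**Figure D2:**
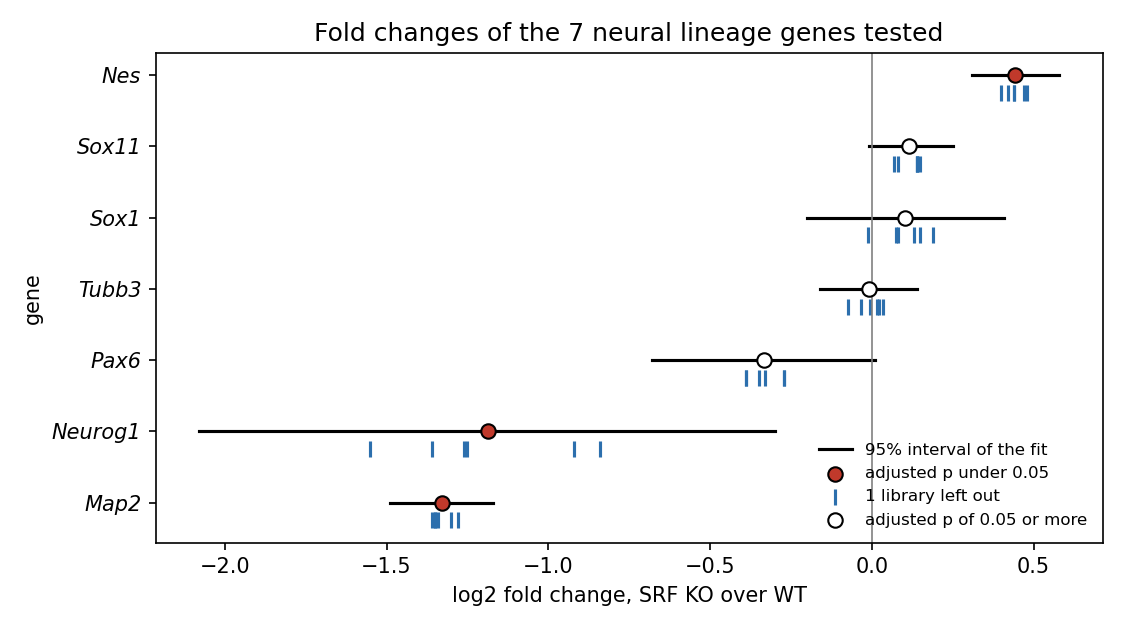
Log2 fold change (SRF KO over WT) of the 7 tested genes, with 95% intervals from the edgeR fit as bars and blue ticks for the 6 fits that each left out 1 library. Filled points passed an adjusted p of 0.05. The Map2 ticks stay between -1.36 and -1.28, and those of Neurog1 spread from -1.55 to -0.84.

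The early neuroectoderm factors Sox1 and Pax6 were detected at low levels in every library. Sox1, an HMG-box factor of the SoxB1 group, had 83, 92 and 100 counts in the knockout and 97, 90 and 93 in WT. Its levels of 3.34 ± 0.220 and 3.14 ± 0.419 CPM (SD, n = 3) overlapped between groups. The log2 fold change was 0.10 (SE 0.14, 95% interval -0.20 to 0.41, edgeR adjusted p 0.593), so that a change within this interval could not be told from none. It was 0.19 without WT replicate 2 and -0.0111 without WT replicate 1. Sox1 lies at chr8:12395295-12400126 on the plus strand, has 1 exon, and is overlapped on the same strand by the entries Sox1ot and Gm25239, which have no row.

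Pax6, a paired-box and homeobox factor of forebrain and eye progenitors, had 48, 40 and 49 counts in the knockout and 76, 59 and 55 in WT. Its scaled levels of 1.78, 1.51 and 1.69 CPM in SRF KO all lay under the 2.10, 2.29 and 1.92 CPM of WT. The difference did not pass the threshold, with a log2 fold change of -0.33 (SE 0.158, 95% interval -0.68 to 0.01, edgeR adjusted p 0.114). Separation of 3 values from 3 is common in this table: it held for 52.7% of all genes tested, and for 5 of the 7 tested neural lineage genes. Pax6 lies at chr2:105668900-105697364 on the plus strand, with up to 14 exons. Its antisense partner Pax6os1 has a row with 0 counts in every library, and so does Paupar, 7.56 kb away.

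Pax3, a paired-box factor of the dorsal neural tube and neural crest, had 5, 3 and 5 counts in the knockout and 4, 1 and 0 in WT. The sums of 13 and 5 counts gave a ratio of 2.86 with an exact 95% counting interval of 0.958 to 10.3, which includes no difference. Hes5, a bHLH repressor that Notch switches on in neural progenitors, had 1, 1 and 2 counts in the knockout and 1, 2 and 2 in WT. No difference of Hes5 could be measured at this depth, and its presence above the floor was not shown in either group. Pax3 lies at chr1:78101267-78197134 on the minus strand and Hes5 at chr4:154960923-154962371 on the plus strand.

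Sox11 and Tubb3, the members with the highest CPM in WT, did not pass the test. Sox11, a SoxC factor of young neurons that is also expressed in mesenchyme, had 2446, 2653 and 2584 counts in the knockout and 3202, 2089 and 2551 in WT. Its levels were 90.9, 100.2 and 89.3 CPM in the knockout and 88.4, 81.2 and 88.9 CPM in WT. The highest WT and the lowest SRF KO library thus lay next to each other without overlapping. The log2 fold change was 0.12 (SE 0.06, 95% interval -0.01 to 0.25, edgeR adjusted p 0.142). It was 0.08 without WT replicate 2 and 0.07 without SRF KO replicate 2, the library with the highest level. Sox11 lies at chr12:27334264-27342574 on the minus strand and has 1 exon.

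Tubb3, a beta-tubulin isotype used as a neuronal marker, had levels of 39.3, 38.4 and 40.8 CPM in the knockout and 41.9, 35.6 and 41.5 CPM in WT. The SRF KO values all lay within the WT range. The log2 fold change was -0.009 (SE 0.07, edgeR adjusted p 0.934), and the 95% interval of -0.16 to 0.14 bounds any difference. Tubb3 lies at chr8:123411424-123422015 on the plus strand. Another entry, Gm20388, covers it on the same strand and has no row, and since the counting rule is not given in the sources used here, reads of the pair could have been shared.

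Levels of different genes were compared per kilobase of annotated exon (CPM per kb), with the exons of all transcripts of a gene merged. In WT the order was Tubb3 at 21.2 ± 1.88, Sox11 at 10.4 ± 0.520, Nes at 4.56 ± 0.223, Map2 at 1.53 ± 0.0773 and Sox1 at 0.650 ± 0.0868 CPM per kb (SD, n = 3). Neurog1 followed at 0.351 ± 0.108 and Pax6 at 0.180 ± 0.0161, with Hes5 and Pax3 at no more than 0.057 in any WT library. The median over tested genes was 4.52, so that Tubb3 and Sox11 lay above it, Nes at it, and the others under it. Neighbours in this order did not overlap in WT. In SRF KO Map2, at 0.606 ± 0.0218, fell just under Sox1, at 0.691 ± 0.0456, with no overlap. Neurog1 (0.0661 to 0.224) and Pax6 (0.129 to 0.153) overlapped there, and so did Hes5 and Pax3. Merged exons overstate the length of the transcripts in use for genes with many isoforms, such as Map2 and Pax6, and understate their level.

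**Figure D3:**
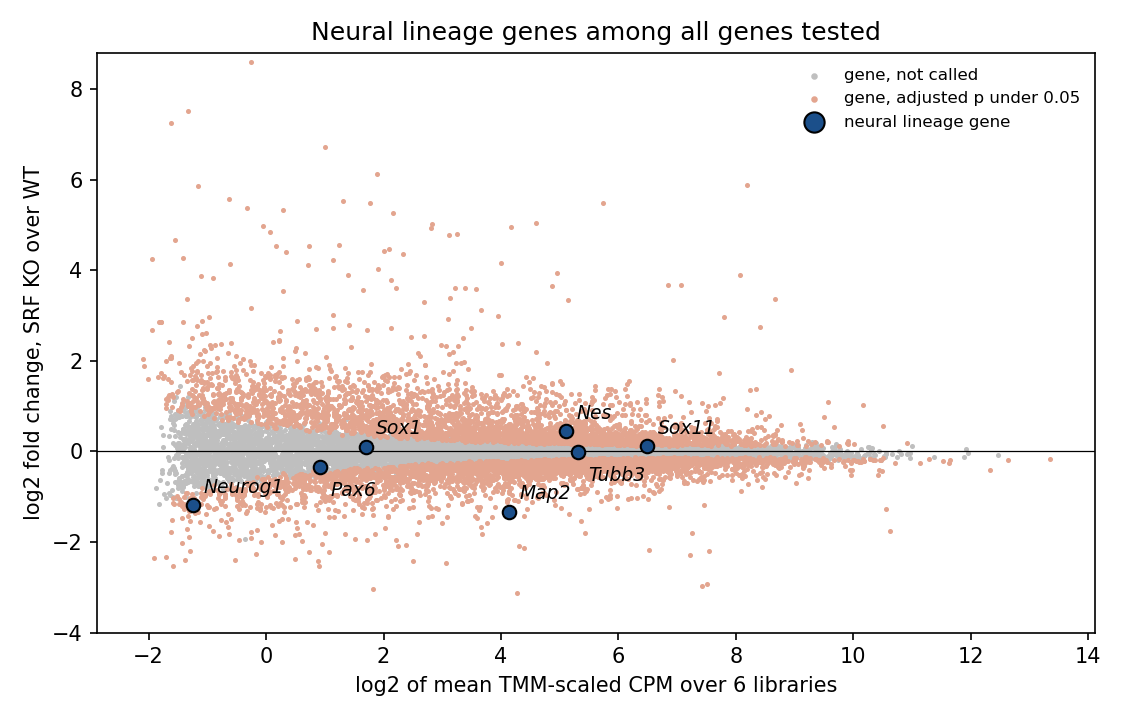
Log2 fold change (SRF KO over WT) against log2 of the mean CPM over 6 libraries for the 14778 genes tested, with called genes in orange and the 7 tested neural lineage genes in blue. Map2 lies near the lower edge of genes at its level, and Sox1, Sox11 and Tubb3 lie close to 0.

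Map2 was then set beside other microtubule proteins and neuronal genes, from lists typed by role. Over all genes tested 21.2% were called higher and 21.3% lower, which is the background for every list count given here. Of 30 tested neuronal differentiation genes out of 37 listed, 14 were lower and 5 higher, with a median of -0.24. The latter number was 3 without SRF KO replicate 1 or 3. Pluripotency markers moved in the same libraries, with 8 of 18 lower, 2 higher (1 without SRF KO replicate 1 or 2 or WT replicate 1 or 3) and 8 not called. The lower genes included Nanog at -0.79 and Dppa3 at -2.08, and the 2 higher genes were Zfp42 at 0.175 and Klf5 at 0.328. Pou5f1 was among those not called (-0.082, edgeR adjusted p 0.258). All 14 tested primitive endoderm markers were higher. The part of either change in the values of Map2 and the neuronal genes was not tested. Among the microtubule-associated proteins of neurons, Mapt (tau) fell from 30.9 ± 0.957 to 18.7 ± 0.897 CPM (SD, n = 3), which is -0.73 on the log2 scale (edgeR adjusted p 6.2e-06). Map1b, which acts in growing axons, changed by -0.39 (edgeR adjusted p 0.00015) and Map1a, its relative in mature neurons, by 0.37 in the opposite direction (edgeR adjusted p 0.00024). Of 14 tested genes for microtubule-binding and microtubule-regulating proteins that are not confined to neurons, 3 were lower and 0 higher. Their median was -0.07, and the 21.4% called in either direction lay under the 42.4% of all genes tested. Without WT replicate 2 the counts were 4 lower and 2 higher. Map4, the broadly expressed relative of Map2 and tau, was at 97.6% of its WT level (log2 fold change -0.03, edgeR adjusted p 0.582), and with total counts as the only scaling its value was 0.00285. The list's called genes were Map7, Map9 and Stmn1, at -0.38, -0.28 and -0.25.

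**Figure D4:**
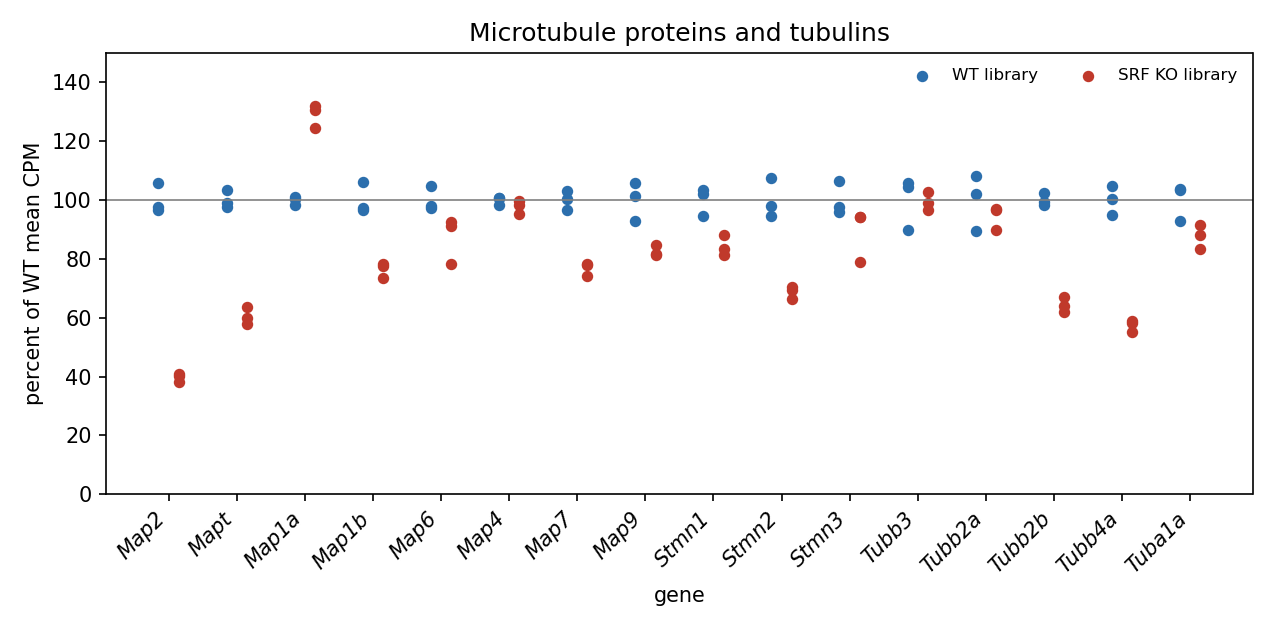
Level of 16 genes for microtubule proteins and tubulins in each library as a percentage of the WT mean CPM of that gene (WT blue, SRF KO red). The knockout means lie at 39.8% for Map2, 60.4% for Mapt, 97.6% for Map4 and 129% for Map1a, with the Tubb3 libraries of both groups mixed.

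Tubulins that are abundant in neurons did not move as 1 group with Tubb3. Tubb2b fell from 209 ± 4.29 to 135 ± 5.19 CPM (SD, n = 3), which is -0.64 on the log2 scale (edgeR adjusted p 1.6e-06). Tubb4a fell by 0.80 (edgeR adjusted p 0.000193). Tubulins are a family of similar genes, so that reads can have been split between copies. Stmn2, a regulator of microtubules in growth cones, was at 208 CPM in WT and fell by 0.54 on the log2 scale. Dpysl5, a collapsin response mediator of growth cones, fell by 0.95, and Elavl3, an RNA-binding protein of neurons, by 0.72. Among the genes that rose were the neurofilament Nefh (0.53) and the adhesion molecule L1cam (0.47). Dcx, Myt1, Nhlh1 and Nhlh2, which mark committed neurons, were at or under 3 counts in all 6 libraries.

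Sox1 and Pax6 belong with regulators of neural progenitors. Of 26 tested regulators out of 34 listed, 12 were higher and 5 lower, with a median of 0.20, and without WT replicate 2 these counts were 12 and 8. Gbx2, a homeobox factor of the anterior hindbrain that also acts in pluripotent cells, rose from 32.5 ± 1.33 to 61.2 ± 0.489 CPM (SD, n = 3), which is 0.91 on the log2 scale (edgeR adjusted p 2e-07). Meis1, a homeobox factor, rose by 1.57. Otx2, a factor of epiblast and anterior neuroectoderm, rose by 0.51, and Emx2 and En1, patterning factors of the brain, had log2 fold changes of 1.64 and 1.58 at mean levels of no more than 2.41 CPM in the knockout. Prom1, a membrane protein of progenitors, and the zinc finger gene Zic5 fell by 1.82 and 0.89. Of the other SoxB1 genes, Sox3 rose by 0.57 (edgeR adjusted p 0.0337), a call that was lost without any single knockout library (adjusted p 0.0712 to 0.0897). Its value was 0.35 without WT replicate 2. Sox2 had a log2 fold change of -0.19 and missed the threshold (edgeR adjusted p 0.0506). It passed in 6 of 13 alternatives, among them DESeq2 (adjusted p 0.0409), no filter on low counts (0.0269), gene rows only (0.0377) and the fits without SRF KO replicate 2 (0.035) or WT replicate 2 (-0.26, 0.000212). Primitive endoderm markers moved in the same libraries. All 14 tested of 15 listed were higher in the knockout, and the list summed to 3038 to 3250 CPM there against 412.3 to 438.1 CPM in WT. Their median was 3.67, also with Ttr, at 0 counts in WT, set to its floor. Afp was at or under 3 counts in every library. The part of such cells in these rises was not tested.

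On a list of other Sox genes, without SoxB1 genes, Sox11 and Sox21, 5 of 12 tested were higher and 2 lower. Sox21, from the list of progenitor regulators, had a log2 fold change of -0.545 (edgeR adjusted p 0.0027). Of the SoxC relatives of Sox11, Sox4 rose by 0.48 (edgeR adjusted p 0.00038) and Sox12 fell by 0.44 (edgeR adjusted p 0.00128). The endoderm factors Sox7 and Sox17 rose by 3.62 and 3.57. The other Pax genes were nearly silent: of 7 listed only Pax8 had enough counts to be tested, with a log2 fold change of 0.63 whose call was lost under DESeq2 (adjusted p 0.0607) and without SRF KO replicate 1 or 3 or WT replicate 1 or 3 (adjusted p 0.0712 to 0.111). Pax4 had 0 counts in every library.

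Hes5 was near the floor while most genes of the Notch pathway had enough counts to be tested. Of 25 tested Notch genes out of 28 listed, 7 were higher and 7 lower, with a median of -0.04. Without SRF KO replicate 1, 4 were higher. The receptors Notch1 and Notch2 were at 52.1 and 58.5 CPM in WT and did not pass the test. Notch1, at -0.22, passed in 4 of 13 alternatives, among them no filter on low counts (adjusted p 0.0393) and the fits without SRF KO replicate 1 (-0.29, 0.0426) or WT replicate 2 (-0.30, 0.00123). Notch3 and Notch4 fell by 0.40 and 0.59. The ligand Dll1 fell from 11.7 ± 0.669 to 6.59 ± 0.456 CPM (SD, n = 3), which is -0.83 on the log2 scale (edgeR adjusted p 2.8e-05), while the ligand Jag1 rose by 0.36. Rbpj, the DNA-binding partner of Notch, was at 487 CPM in WT and fell by 0.35. Hes1, the effector related to Hes5, rose from 27.8 ± 2.70 to 40.4 ± 0.816 CPM (SD, n = 3), which is 0.54 on the log2 scale (edgeR adjusted p 0.00014). Maml3, a coactivator, rose by 1.76, and Dtx1, a regulator of the pathway, fell by 1.06.

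Most listed Neurog and Neurod genes, which encode related bHLH factors, were at very low levels too, with Neurod1 as the exception. The bHLH factors Olig1, Tcf3, Tcf4 and Tcf12 had a higher mean CPM than Neurod1 in both groups. Neurog2 had no more than 4 counts in any library, Neurog3 no more than 13, and Neurod2, Neurod4 and Neurod6 were at or under 3 counts in all. Of 11 tested genes on the list of proneural factors and their partners, 4 were higher and 2 lower, the latter number being between 1 and 4 over the alternatives. Neurod1 rose from 8.66 ± 1.06 to 12.7 ± 1.60 CPM (SD, n = 3), which is 0.56 on the log2 scale (edgeR adjusted p 0.0024). Insm1, a zinc finger factor of neuronal and endocrine precursors, rose by 1.13. The Id genes, whose products bind E proteins and block proneural factors, moved both ways: Id1 rose from 10.4 ± 1.06 to 32.4 ± 1.46 CPM and Id2 fell from 25.6 ± 1.08 to 12.2 ± 0.632 CPM (SD, n = 3). These are log2 fold changes of 1.64 and -1.08 (edgeR adjusted p 5.3e-08 and 6.2e-07).

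REST represses neuronal genes in cells that are not neurons. Rest was at 340 CPM in the knockout and 354 CPM in WT and did not pass the test (log2 fold change -0.06, edgeR adjusted p 0.364). Of 12 genes of the REST corepressor list, all tested, 6 were lower and 0 higher, with a median of -0.14. The called genes were Ctdsp2 at -0.49, Kdm1a at -0.31, Rcor3 at -0.28, Sin3a at -0.24, Rcor2 at -0.23 and Hdac1 at -0.13. The calls of Rcor3 and Hdac1 were lost under most alternatives, with adjusted p up to 0.119 and 0.188, and the other 4 held under all 13.

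**Figure D5:**
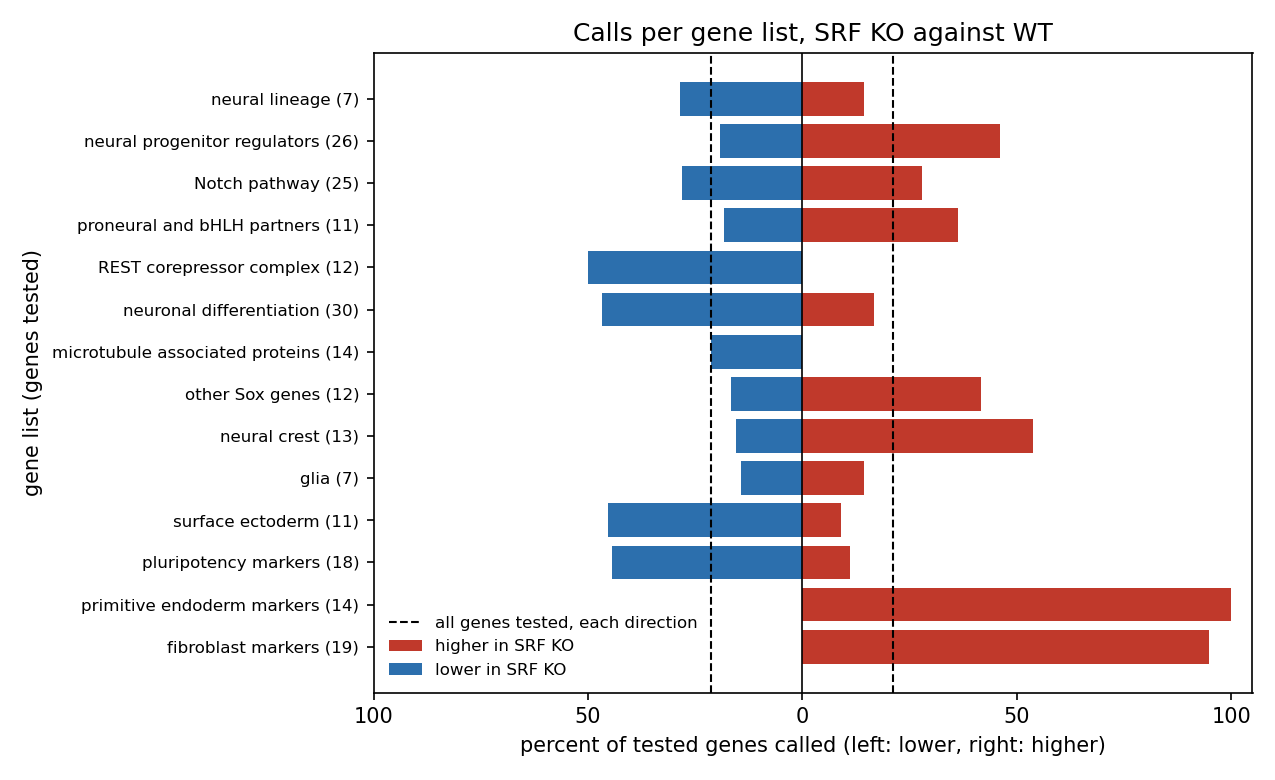
Percentage of the tested genes of each list called higher (right, red) or lower (left, blue) in SRF KO, with the number tested in brackets and dashed lines at 21.2% higher and 21.3% lower, the shares over all genes tested. Neuronal differentiation, REST corepressor, surface ectoderm and pluripotency genes lean to the left, and neural progenitor regulators, neural crest, fibroblast and primitive endoderm genes to the right. A list of 7 Pax genes is not drawn because only 1 was tested.

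For the 6 members with a mean of at least 50 counts, which leaves out Neurog1, Pax3 and Hes5, the genes with the most similar pattern were sought among 12343 other genes with such a mean, as the smallest root mean square difference of centred log2 CPM over the 6 libraries. Map2 was most like Fndc3c1 and Bnip3, at differences of 0.0319 and 0.066, which had log2 fold changes of -1.30 and -1.22. Nes was most like Nptn and Cpped1, with log2 fold changes of 0.39 and 0.43. Sox11 was most like Slc30a6 and Copz1, Tubb3 most like Slc25a37 and Calm3, Sox1 most like Zkscan7 and Rbm43, and Pax6 most like Zfp74 and Parp6. The last pair had log2 fold changes of -0.34 and -0.35, almost that of Pax6, and passed the test (edgeR adjusted p 0.0033 and 0.0085) at levels of 25.4 and 15.2 CPM in WT, where Pax6 had 2.10 CPM. For all 6 members, similar fold changes follow from the way these genes were chosen and are not a separate result.

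Genes next to the members on the chromosome did not share their changes in a uniform way. Unc80, 25.8 kb from Map2, had a log2 fold change of 0.93 against -1.33 for Map2, at 0.662 CPM in the knockout (edgeR adjusted p 0.043), a call lost under DESeq2 (0.115) and without any 1 of 4 libraries, SRF KO replicates 1 and 2 and WT replicates 1 and 3 (0.0602 to 0.194). Crabp2 and Bcan, 17.7 and 7.08 kb from Nes, had values of -0.18 and -0.51 and did not pass (edgeR adjusted p 0.20 and 0.055), and Bcan passed in 3 of 13 alternatives, among them the fits without SRF KO replicate 2 (0.0322) or WT replicate 2 (0.0489). Cxcl14, 36.5 kb from Neurog1, fell by 0.57 on the log2 scale (edgeR adjusted p 0.0056). Epha4, 586 kb from Pax3, rose by 0.41 (edgeR adjusted p 0.0036). Pank4, 1.75 kb from the nearly silent Hes5, was at 29.6 CPM in WT and had a log2 fold change of -0.22 (edgeR adjusted p 0.034). That call was lost under DESeq2 (adjusted p 0.0533), with total counts only (edgeR adjusted p 0.0885) and without any single knockout library (edgeR adjusted p 0.0724 to 0.117). It was also lost without WT replicate 1 or 3 (edgeR adjusted p 0.092 and 0.12). Def8, 1.51 kb from Tubb3, had a log2 fold change of 0.02 and did not pass, as Tubb3 did not.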

How the data were processed

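Bulk RNA of 3 SRF KO and 3 WT iPSC libraries was sequenced as paired reads of 150 bp, and reads with adaptors or low quality were removed, per the labels' protocols. The deposited table holds raw counts per gene and per transposable element subfamily, judged from its whole-number values. Build mm10 and DESeq2 are named in the submitters' processing notes. The aligner, counter, annotation and strand setting are not given in the sources used here, so that overlapping, antisense and near-identical genes are uncertain.

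All rows were fitted together in R 4.3.3 with edgeR 4.0.16: filterByExpr with a minimum count of 10, TMM scaling, quasi-likelihood test, Benjamini-Hochberg adjustment over 15611 rows (14778 genes). Scripts were tested on simulated data. Alternatives were other scalings, DESeq2 1.42.0, no filter, gene rows only, a stricter threshold, a replicate block and leaving out each library. Replicate pairs had a chi-square per degree of freedom of 1.83 to 15.5, so each library counted once. Coordinates and exon lengths are from GENCODE M21 (GRCm38), which gave a length for 96.4% of genes tested.

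The members and the 14 other lists were chosen with earlier results of these data known. Named by rule were the members, Srf, from each list the called genes of smallest p (at most 4, mean count 50 or more), the 2 most similar genes per member and neighbouring or overlapping genes. Further list genes in the text were picked once their values had been seen, and so were the alternatives for list counts. No sample column was left unused. A few list genes are counted but not reported here by name.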

Additional observations from a re-analysis of the deposited data

How the results depend on the processing

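Map2 (-1.36 to -1.28) and Nes (0.40 to 0.48) kept their direction and call under all 13 alternatives. Neurog1 kept its direction (-1.55 to -0.84) but passed the 0.05 threshold in 9, with adjusted p of 0.0176 to 0.0409. These 9 include the stricter setting, which is the main fit (edgeR adjusted p 0.0336) read at 0.01, where the call was lost. The call of Neurog1 was also lost under DESeq2 and without SRF KO replicate 1 or 3 or WT replicate 3. That put the number of neural lineage genes lower at 1 instead of 2. It was between 1 and 2 over the fits that each left out a library. That number was also 1 at an adjusted p under 0.01, where all genes lower fell to 2013, as a stricter threshold must. Leaving out a library gave between 2457 and 3652 genes higher and between 2274 and 3809 lower, with the most without WT replicate 2. Genes near 0 that never passed changed sign. Tubb3 was at 0.00119 with DESeq2 size factors in edgeR, 0.0278 with total counts only, 0.0014 under DESeq2, and -0.0738 to 0.0342 over the fits without a library. Sox1 ranged from -0.0111 to 0.19 over those fits, Calm3 from -0.0559 to 0.0506, Def8 from -0.0395 to 0.069 and Slc25a37 from -0.0729 to 0.031, the last being at 0.0235 with total counts only, where Map4 was at 0.00285. The cause was not tested. Deviations of same-numbered SRF KO and WT libraries from their group means had correlations of 0.0446, 0.36 and 0.22. These values do not settle if replicate numbers mark pairs of libraries. With the replicate block 1 neural lineage gene was higher and 2 were lower, and 3659 genes were higher and 3853 lower. Among other named genes, Sox2 (-0.19, adjusted p 0.0291), Notch1 (-0.22, 0.00254) and Bcan (-0.52, 0.0465) passed with the block, 2 glial and 4 proneural list genes were lower, and 2 microtubule-associated genes were higher. Depth limits Hes5, Pax3 and Neurog1, whose counts lay at or near the floor.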

Other observations

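Genes listed as markers of lineages that border the neural plate moved in both directions. Of 13 tested neural crest genes out of 16 listed, 7 were higher and 2 lower in SRF KO, with a median log2 fold change of 0.85. Under DESeq2, at an adjusted p under 0.01 or without SRF KO replicate 1, 1 was lower. The rises included Ets1 (1.82), Snai2 (1.29) and Twist1 (0.93), transcription factors that are also expressed in mesenchyme, and the falls Erbb3 (-0.75), a receptor of Schwann cell precursors. The crest markers Tfap2b and Dlx5 were at or under 3 counts in every library, and Sox10 had levels of 0.601 ± 0.211 (knockout) and 0.658 ± 0.0761 (WT) CPM (SD, n = 3). The fibroblast list rose in the same libraries (18 of 19 tested), and its part in these rises was not tested.

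Of 11 tested surface ectoderm genes out of 14 listed, 5 were lower and 1 higher, with a median of -0.21. Tfap2c, which is also expressed in trophoblast and germ cells, fell from 71.0 ± 5.33 to 33.1 ± 1.89 CPM (SD, n = 3, edgeR adjusted p 2.9e-07), and the homeobox gene Dlx3 had a log2 fold change of -1.29. Trp63, a regulator of epidermis, was at or under 3 counts in every library, and the keratins Krt5 and Krt14 had too few counts to be tested. The called genes included Cdh1 and Epcam, which were at 558 and 204 CPM in WT. These calls do not show that surface ectoderm cells were present. Of 7 tested glial genes out of 10 listed, 1 was higher and 1 lower: Slc1a3, a glutamate transporter, had a log2 fold change of 0.25, and Mbp, a myelin protein, fell from 7.33 ± 0.725 to 1.91 ± 0.484 CPM (SD, n = 3, edgeR adjusted p 2.8e-06). Without WT replicate 2, 2 glial genes were lower. The call of Slc1a3 was lost without SRF KO replicate 2 or 3 or WT replicate 1 or 3 (adjusted p 0.0696 to 0.104), and the one higher surface ectoderm gene, Cdh1, was not called in most such fits. Aqp4 and Mog were at or under 3 counts in every library.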
